A study of Mus musculus with 272 samples.

Results

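The 10 fractions of sucrose gradients and whole transcriptomes from mouse oocytes and preimplantation embryos were used to follow 10 genes of translation control. These are the kinase gene Mtor and its partner Rptor, the mTORC1 effectors Rps6kb1, Eif4ebp1, Eif4ebp2 and Larp1, the elongation factor kinase Eef2k, and the eIF2 kinases Eif2ak1, Eif2ak3 and Eif2ak4. They were taken by gene name, and all 10 were present among the 15771 gene symbols of the table. Levels are CPM, a gene's reads per 1 M reads in its library, with no scaling for transcript length, so a level is compared here between samples and not between genes.

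The 8 groups are the germinal vesicle (GV) oocyte, the oocyte arrested at metaphase II (MII), the zygote, the 2-cell, 4-cell and 8-cell embryo, the morula and the blastocyst. Each has 4 transcriptome libraries (A to D), made from polyadenylated RNA of pools of 20, and 3 gradients (A to C) of about 100 oocytes or embryos lysed with cycloheximide, a drug that holds ribosomes on mRNA. The labels name no strain, genotype, age or agent that sets the groups apart other than their stage. They do not say whether pools or gradients came from separate animals, so p-values measure the spread between these samples, which may be partly technical.

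mTOR is a protein kinase that responds to nutrients and growth factors. In complex 1 (mTORC1) the protein Raptor, encoded by Rptor, brings substrates to it. The kinase releases the cap-binding protein eIF4E from the 4E-binding proteins, activates the S6 kinase, and acts on Larp1, which binds mRNAs of the translation machinery. The eIF2 kinases work on another branch: each phosphorylates initiation factor eIF2 under a given stress and so lowers initiation across mRNAs, while Eef2k slows elongation by phosphorylating eEF2. Oocytes store maternal mRNAs and control their translation while transcription is silent, and the embryonic genome takes over after fertilization, in the mouse mainly at the 2-cell stage.

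The genes lie on 8 mouse chromosomes, in the RefSeq annotation of GRCm38.p6, and all are protein coding. Mtor is at chr4:148448582-148557685, Rptor at chr11:119602905-119899591 and Rps6kb1 at chr11:86498869-86544885. Eif4ebp1 is at chr8:27260327-27275656, Eif4ebp2 at chr10:61428491-61452790 and Larp1 at chr11:57973418-58062034. Eef2k is at chr7:120842642-120907219. Eif2ak1 is at chr5:143817792-143902717, Eif2ak3 at chr6:70844484-70905241 and Eif2ak4 at chr2:118388583-118475234. The submitters' processing notes name GRCm39, another build, so these positions describe the genes and were not used in counting.

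Larp1 and Eef2k had the largest rise and the largest fall of the 10 transcriptome levels between the 2-cell and 4-cell stages, and sequence upstream of a RefSeq start of each is shown for that reason. Both are on the plus strand of GRCm38.p6, printed 5′ to 3′ and credited to RefSeq, and capitals mark GGGCGG, a GC-box core, or its reverse complement CCGCCC. The Larp1 window is the 250 bases at chr11:58008814-58009063, before a start inside the annotated gene. For Eef2k only the far 61 bases of such a window are printed, at chr7:120842581-120842641, directly before the annotated gene. The 189 bases between them and the RefSeq start at 120842831 lie inside the annotated gene and were left out, a CACGTG at 31 bases before that start included.
Larp1: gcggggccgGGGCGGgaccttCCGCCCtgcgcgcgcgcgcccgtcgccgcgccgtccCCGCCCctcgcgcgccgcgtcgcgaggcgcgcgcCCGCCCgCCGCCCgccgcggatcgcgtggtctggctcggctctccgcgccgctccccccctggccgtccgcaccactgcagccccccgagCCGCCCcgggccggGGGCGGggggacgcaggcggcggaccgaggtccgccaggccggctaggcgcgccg
Eef2k: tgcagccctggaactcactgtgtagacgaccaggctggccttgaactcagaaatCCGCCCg
The Larp1 window holds 7 matches at a GC content of 86.8%, and the printed Eef2k stretch 1 match at 59.0%. They differ in length, so their counts cannot be compared with each other. Of 32851 RefSeq windows of 250 bases before a start, 32.7% hold GGGCGG on either strand, and the median GC content is 52.4%. The 9 members in the RefSeq table have 12 whole windows of that length, since Eef2k has 3 starts and Eif2ak4 has 2, and 7 of the 12 hold it. On either strand CCAAT was in 3 of these 12 windows (33.8% of all windows), CACGTG in 1 (6.02%) and TATAAA in 0 (12.4%). A match says only that these letters are in the window.

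Transcriptome libraries held 11.2 to 24.3 M reads, and fraction libraries 0.0102 to 43.2 M (median 18.6 M). Zeros made up 46.3% of the 300 member values in 4-cell fractions, 36% in 8-cell, 34.7% in 2-cell and 25% in morula fractions. At the other 4 stages they made up 5.67% to 8.67%. The median fraction library held 8.50 M reads at the 4-cell, 18.3 M at the 8-cell and 10.0 M at the 2-cell stage. It held 31.9 M in morulae and 16.6 M (zygotes) to 34.3 M (blastocysts) at the other 4 stages. The part of depth in these zeros was not tested. The stage labels were checked with marker genes. The summed level of 10 oocyte markers was 22704 to 25288 CPM in GV transcriptomes, 5145 to 6225 CPM in 2-cell embryos and 71.6 to 89.7 CPM in 4-cell embryos. The 7 measured 2-cell markers summed to 2224 to 3003 CPM in 2-cell transcriptomes, and the 6 measured trophectoderm markers to 2209 to 2844 CPM in blastocysts. The 4 measured cumulus and granulosa cell markers of 12 listed summed to 40.2 to 46.3 CPM in GV oocytes and 60.6 to 69.0 CPM in MII oocytes, and to at most 0.541 CPM from the 4-cell stage on. The part of other cells in a member's level was not tested.

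The first comparison asked how the level of each member changed between consecutive stages in whole transcriptomes. The sharpest changes lay between the zygote and the 4-cell embryo. Eif4ebp1 rose 16.1-fold to the 2-cell stage and Larp1 28.5-fold from the 2-cell to the 4-cell stage, whereas Eef2k fell 52.4-fold and Eif2ak4 5.54-fold at that same transition. In blastocysts Mtor, Rptor, Eif4ebp1, Eif2ak3 and Eef2k rose together. Fewer cells of a type and less RNA per cell cannot be told apart in such bulk samples, and CPM gives a share of the library and not an amount per embryo.

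A change was called at an adjusted p under 0.05 and an absolute change of at least 1 on the log2(CPM + 1) scale, with limma's moderated test and Benjamini-Hochberg adjustment over 14642 genes. From GV to MII oocytes 2 members rose and 1 fell, where 34.5% of all genes were called, 9.11% higher and 25.4% lower. From MII oocytes to zygotes 1 rose and 1 fell, against 10.3% of all genes, 5.81% higher and 4.48% lower. From zygotes to 2-cell embryos 2 rose and 1 fell, against 33.9%, 25.2% higher and 8.71% lower. From 2-cell to 4-cell embryos 4 rose and 2 fell, against 64.8%, 31.8% higher and 32.9% lower. No member was called from 4-cell to 8-cell embryos (1.77%) or from 8-cell embryos to morulae (11.8%). From morulae to blastocysts 5 rose and 0 fell, where 26.8% of all genes were called and 18.8% were higher. Over the 70 tests of members 19 were called, or 27.1%, close to the 26.2% over all genes. Consecutive transitions share a stage, so they are not independent.

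For the transition from 4-cell to 8-cell embryos, 0 members had an unadjusted p under 0.05 by limma, and edgeR and DESeq2 also called 0. For 8-cell embryos to morulae 4 members had an unadjusted p under 0.05, and edgeR and DESeq2 each called 1, Eef2k, at changes of -1.20 and -1.26. Scaling mattered at 2 transitions. With quantile normalization 7 members were called from GV to MII oocytes in place of 3, and 2 from morulae to blastocysts in place of 5. That scaling moved the median change of all genes from -0.11 to 0.16 at the first of these transitions and from 0.16 to -0.01 at the second. It moved the share of called genes that were higher from 26.4% to 55.7% and from 70.2% to 50.8%.

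**Figure D1:**
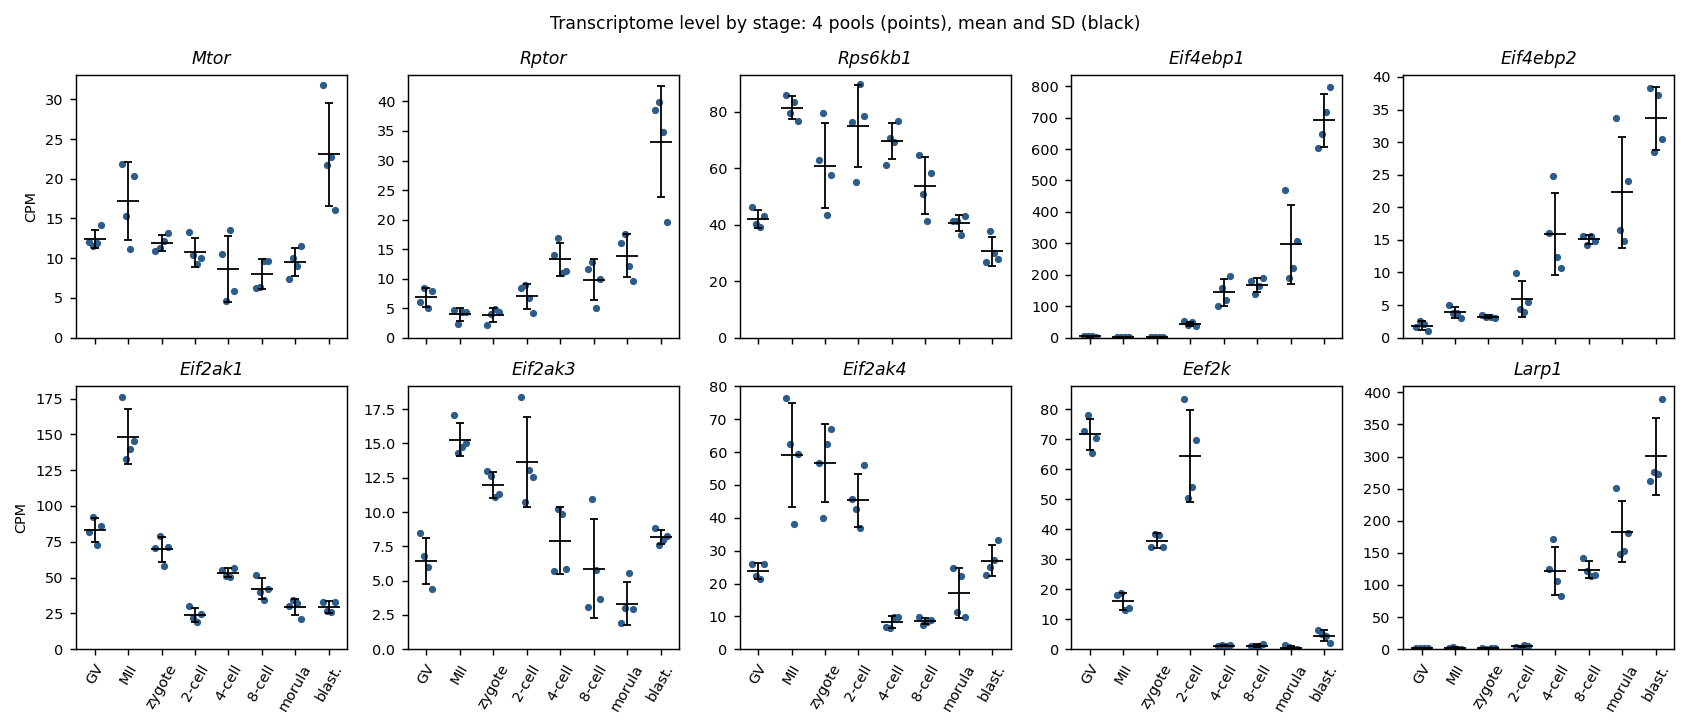
Transcriptome level (CPM, linear axis from 0) of each of the 10 members, in 1 panel each, at the 8 stages; points are the 4 pools, black marks the mean and SD. Eif4ebp1 and Larp1 are at their lowest in oocytes and zygotes and climb to the blastocyst, while Eef2k is at 50.4 CPM or more in every GV and 2-cell pool and at or under 1.79 CPM in every pool from the 4-cell stage to the morula.

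Mtor, the kinase itself, had the narrowest range over development after Rps6kb1, with a highest stage mean 2.88-fold above the lowest. The 4 morula pools were at 7.34, 10.1, 8.96 and 11.5 CPM and the 4 blastocyst pools at 31.8, 21.7, 22.7 and 16.1 CPM. Every blastocyst pool was above every morula pool. The mean rose from 9.47 ± 1.76 (SD, n = 4) to 23.1 ± 6.48 CPM, a change of 1.18 (SE 0.25, adjusted p = 0.0002). With quantile normalization the change was 0.81, under the size asked for a call. At the 6 earlier transitions Mtor changed by -0.46 to 0.40, and the ranges of neighbouring stages in the order of levels (blastocyst, MII, GV, zygote, 2-cell, morula, 4-cell, 8-cell) overlapped throughout.

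Rptor, which encodes the substrate-binding subunit, was at 16.1, 17.6, 12.1 and 9.65 CPM in morulae and 38.5, 39.9, 34.9 and 19.6 CPM in blastocysts. The groups did not overlap, and the change was 1.19 (SE 0.30, adjusted p = 0.0013). It was 0.89 with quantile normalization, again under the size for a call. Rptor was lowest in MII oocytes, at 4.69, 2.34, 4.32 and 4.38 CPM, and zygotes, at 2.22, 4.08, 4.79 and 4.28 CPM, and both groups lay below the GV pools (5.07 to 8.44 CPM). The GV to MII change of -0.68 (adjusted p = 0.0045) was too small for a call. From the blastocyst down, the order was morula, 4-cell, 8-cell, 2-cell, GV, MII and zygote, with overlapping ranges from the morula to the GV oocyte.

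Rps6kb1, the S6 kinase that phosphorylates ribosomal protein S6, was called at no transition of the transcriptome. GV pools were at 46.3, 40.3, 39.1 and 43.0 CPM and MII pools at 86.1, 79.5, 83.4 and 76.8 CPM, with no overlap. The change of 0.94 (SE 0.13, adjusted p = 7.6e-08) was under the size for a call. It was 1.21 with quantile normalization, 1.27 by edgeR and 1.40 by DESeq2, each a call. Blastocysts had the lowest mean, with pools at 26.6 to 37.8 CPM, below every MII, 2-cell and 4-cell pool.

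Eif4ebp1 and Eif4ebp2 encode 4E-binding proteins, which hold eIF4E away from the scaffold eIF4G until mTORC1 phosphorylates them. Eif4ebp1 spanned the widest range of the 10, with a highest stage mean 407-fold above the lowest. It was at 1.93, 2.17, 1.69 and 1.00 CPM in MII oocytes and at 2.27, 2.42, 3.33 and 3.0 CPM in zygotes. The 2-cell libraries were at 52.0, 39.2, 48.2 and 38.3 CPM, all far above the zygotes.

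Eif4ebp1 thus rose from 2.75 ± 0.497 to 44.4 ± 6.73 CPM (SD, n = 4), a change of 3.60 (SE 0.19, adjusted p = 2.5e-19). It rose again to 101, 158, 119 and 197 CPM in 4-cell pools, a change of 1.64 (SE 0.24, adjusted p = 8.7e-08). The 8-cell pools, at 180, 139, 163 and 190 CPM, overlapped those of 4-cell embryos. Morula pools ran from 189 to 470 CPM and blastocyst pools were at 602, 647, 718 and 797 CPM, again with no overlap. The morula to blastocyst change was 1.30 (SE 0.22, adjusted p = 6.3e-06). On recovered reads it was 0.95 by edgeR and 0.99 by DESeq2, just under the size for a call.

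Eif4ebp2 was at 1.58, 2.62, 2.05 and 1.05 CPM in GV oocytes, its lowest stage, and at 5.04, 3.73, 3.71 and 3.06 CPM in MII oocytes. The ranges did not overlap, but the change of 0.81 (adjusted p = 0.00026) was under the size for a call. It was a call with quantile normalization (1.52), edgeR (1.41) and DESeq2 (1.53). Eif4ebp2 rose from 9.95, 4.37, 3.89 and 5.52 CPM in 2-cell to 16, 24.8, 12.3 and 10.6 CPM in 4-cell libraries, a change of 1.29 (SE 0.29, adjusted p = 0.00015). All 4-cell pools lay above all 2-cell libraries. Blastocysts had the highest mean, with pools at 28.5 to 38.3 CPM, within reach of the highest morula pool at 33.7 CPM.

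Larp1 encodes an RNA-binding protein that mTORC1 phosphorylates and that binds mRNAs starting with a terminal oligopyrimidine motif, those of ribosomal proteins and elongation factors among them. It was at 2.23, 2.11, 1.14 and 1.12 CPM in GV oocytes and at 1.13, 0.759, 1.28 and 1.72 CPM in zygotes. The 2-cell libraries were at 3.79, 2.45, 5.84 and 4.93 CPM, and the 4-cell pools at 125, 172, 106 and 83.1 CPM. Each of these 2 steps separated the groups completely.

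From the 2-cell to the 4-cell stage Larp1 rose from 4.25 ± 1.47 to 121 ± 37.7 CPM (SD, n = 4), a change of 4.54 (SE 0.33, adjusted p = 3.7e-15). The rise before it, from the zygote, was 1.21 (SE 0.26, adjusted p = 0.00013), and with quantile normalization it was 0.39 (adjusted p = 0.21). From there Larp1 stayed high, at 115 to 143 CPM in 8-cell pools, 148 to 251 CPM in morulae and 263 to 390 CPM in blastocysts. No later change was called.

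Eef2k encodes the kinase that inhibits elongation factor eEF2. It was called at 4 of 7 transitions, falling at 2 and rising at 2, and no other member was called at more than 3. GV pools were at 72.6, 78.1, 65.2 and 70.4 CPM, MII pools at 18.1, 18.6, 13.1 and 13.8 CPM and zygote pools at 34.1, 38.5, 38.1 and 34.0 CPM. These 3 stages did not overlap. The 2-cell libraries were at 83.5, 50.4, 54.0 and 69.6 CPM, so that 2-cell and GV ranges overlapped.

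Eef2k fell 4.50-fold from GV to MII oocytes, a change of -2.11 (SE 0.17, adjusted p = 1e-13), and rose to the zygote by 1.15 (SE 0.18, adjusted p = 2.7e-06). In 4-cell pools it was at 1.13, 1.44, 1.07 and 1.27 CPM, which is 20 to 25 reads. The fall from 64.4 ± 15.2 to 1.23 ± 0.163 CPM (SD, n = 4) was -4.85 (SE 0.27, adjusted p = 8.9e-19). Morula pools were at 1.37, 0.634, 0.0996 and 0.0906 CPM and blastocyst pools at 6.34, 4.98, 4.55 and 2.07 CPM, with no overlap. That rise was 1.83 (SE 0.25, adjusted p = 1.3e-07), or 8.19-fold between means.

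Eif2ak1 (HRI, the kinase that responds to low heme), was highest in MII oocytes at 176, 133, 140 and 146 CPM, above every pool of every other stage. It fell to 71.0, 78.8, 58.1 and 71.1 CPM in zygotes and to 30.3, 21.5, 18.9 and 24.5 CPM in 2-cell libraries, and it was at 55.0, 51.2, 50.5 and 56.9 CPM in 4-cell pools. The changes were -1.08 (SE 0.13, adjusted p = 1.6e-08), -1.52 (SE 0.15, adjusted p = 4.1e-11) and 1.15 (SE 0.19, adjusted p = 1.6e-06). Consecutive stages did not overlap in any of these steps. The first was -0.95 with quantile normalization and just short of a call without MII pool A or without zygote pool C (both rounding to -1.0), and the third was 0.93 by DESeq2.

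Eif2ak3 (PERK, the kinase of the endoplasmic reticulum stress response), was at 8.48, 6.77, 5.98 and 4.41 CPM in GV oocytes and 17.1, 14.3, 14.7 and 15 CPM in MII oocytes. The groups did not overlap, and the change was 1.16 (SE 0.19, adjusted p = 1.1e-06). It was lowest in morulae, at 1.92, 2.97, 5.53 and 2.90 CPM, and rose to 8.87, 7.62, 7.97 and 8.24 CPM in blastocysts, a change of 1.14 (SE 0.27, adjusted p = 0.00067). That second change was 0.65 with quantile normalization and 0.98 without morula pool A.

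Eif2ak4 (GCN2, the kinase that senses uncharged tRNA), was at 26.1, 22.3, 21.4 and 25.8 CPM in GV oocytes and 76.6, 62.5, 38.2 and 59.5 CPM in MII oocytes, a change of 1.24 (SE 0.17, adjusted p = 7.6e-08). It was at 36.9 to 56.2 CPM in 2-cell libraries and fell to 6.81, 6.38, 9.75 and 9.82 CPM in 4-cell pools. That fall, with no overlap, was -2.34 (SE 0.27, adjusted p = 7.8e-10). Its level stayed low in 8-cell pools (7.51 to 9.79 CPM). Blastocyst pools, at 22.5 to 33.3 CPM, overlapped the GV pools. Of the 3 eIF2 kinases, Eif2ak3 and Eif2ak4 rose from GV to MII oocytes, and Eif2ak1, at 0.83 (adjusted p = 2.6e-07), reached the size for a call with quantile normalization (1.00), edgeR (1.15) and DESeq2 (1.28).

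**Figure D2:**
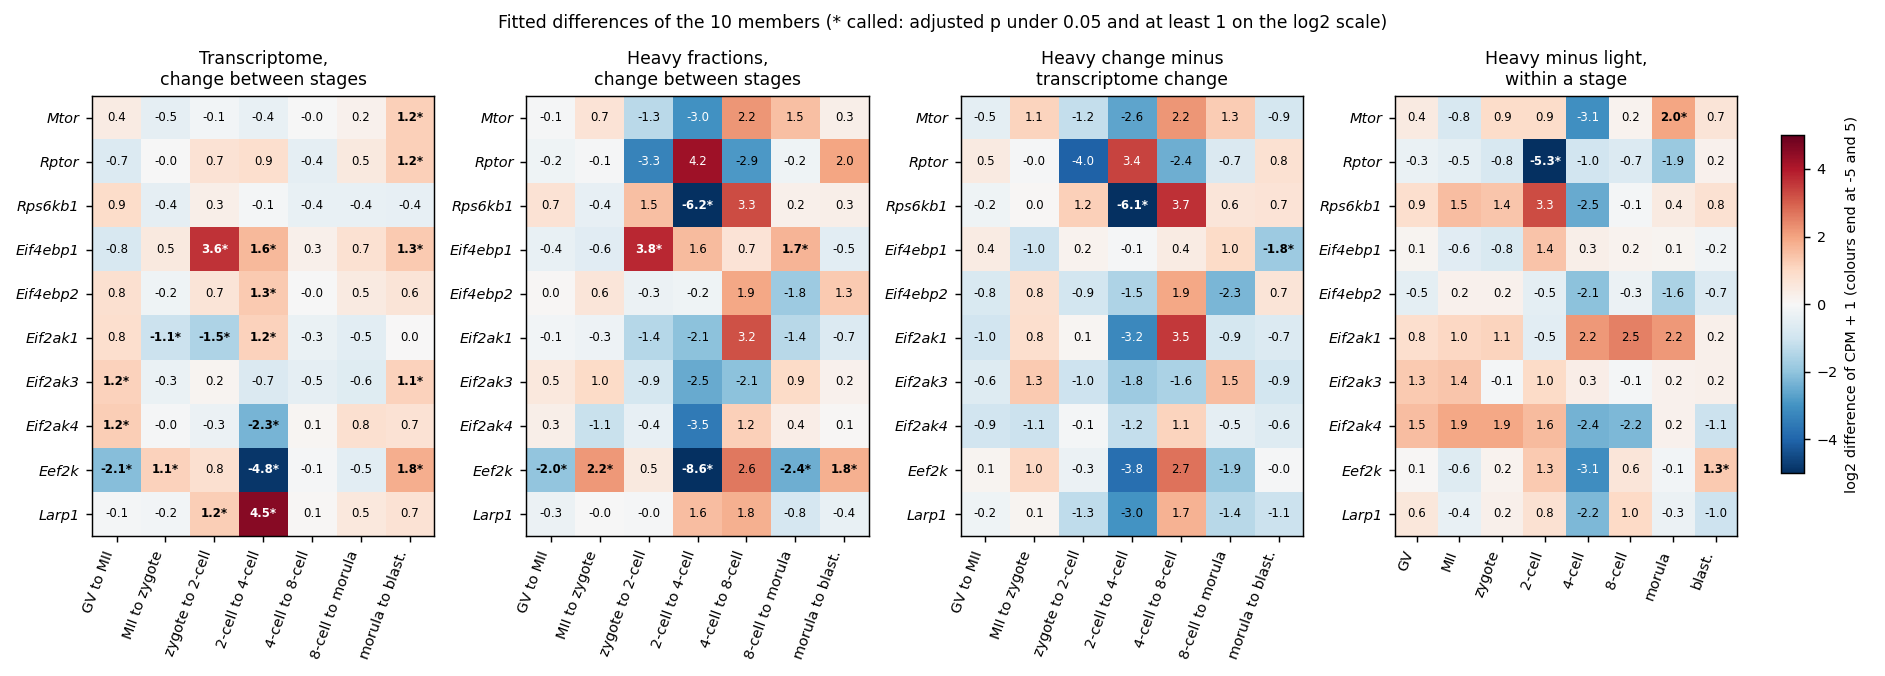
Heat maps of the fitted log2 differences of the 10 members in the 4 sets of comparisons. From left to right these are transcriptome change, heavy-fraction change, heavy-fraction change beyond the transcriptome change, and heavy against light fractions of a stage. Colour runs from -5 to 5, with values beyond the ends drawn at the end colour, and a star marks a call. In that order the stars number 19 of 70, 8 of 70, 2 of 70 and 3 of 80.

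The second set of comparisons asked where along the gradient the member mRNAs lay. In the labels the fractions have numbers and no other names. By the usual convention mRNAs with several ribosomes lie in the later fractions, so 6 to 10 are called heavy here and 1 to 5 light. The CPM of the fractions of a side was averaged for each gradient, which weighs every fraction equally whatever RNA it held.

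In the heavy fractions Eif4ebp1 rose from the zygote to the 2-cell embryo and from the 8-cell embryo to the morula. Eef2k fell to the MII oocyte, rose to the zygote, fell to the 4-cell embryo and rose to the blastocyst, as in the transcriptome, and fell also from the 8-cell embryo to the morula. Rps6kb1 fell from the 2-cell to the 4-cell stage, down to a few reads. For Larp1, the large transcriptome rise to the 4-cell stage had no called counterpart in the heavy fractions. On simulated data the same test found only 18.5% of 16-fold changes at this transition. The missing call therefore does not show that a rise was absent. Over 14524 genes limma called 1 member from GV to MII oocytes (17.8% of all genes), 1 from MII oocytes to zygotes (6.15%) and 1 from zygotes to 2-cell embryos (11.6%). It called 2 from 2-cell to 4-cell embryos (18.5%), 0 from 4-cell to 8-cell embryos (0.482%), 2 from 8-cell embryos to morulae (10.6%) and 1 from morulae to blastocysts (3.44%). The 8 calls in 70 tests are 11.4%, against 9.78% over all genes.

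The spread between gradients set what could be called. The median coefficient of variation of the heavy level over members was 95.1% in 2-cell, 99.6% in 4-cell and 72.6% in 8-cell embryos, against 20.2% in blastocysts and 25.2% in MII oocytes. The tools differed most from 2-cell to 4-cell embryos, where limma called 2 members, edgeR 6, DESeq2 5 and limma without weights 7. On simulated data limma without weights called 8.6% of unchanged genes at that transition, against 1.07% with weights. From 4-cell to 8-cell embryos 3 members had an unadjusted p under 0.05 (Rps6kb1 3.28, Eif2ak1 3.18, Eef2k 2.64), while edgeR called 1 and DESeq2 4. Without 4-cell gradient C the Eef2k change there was 4.20 and passed (adjusted p = 0.011).

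**Figure D3:**
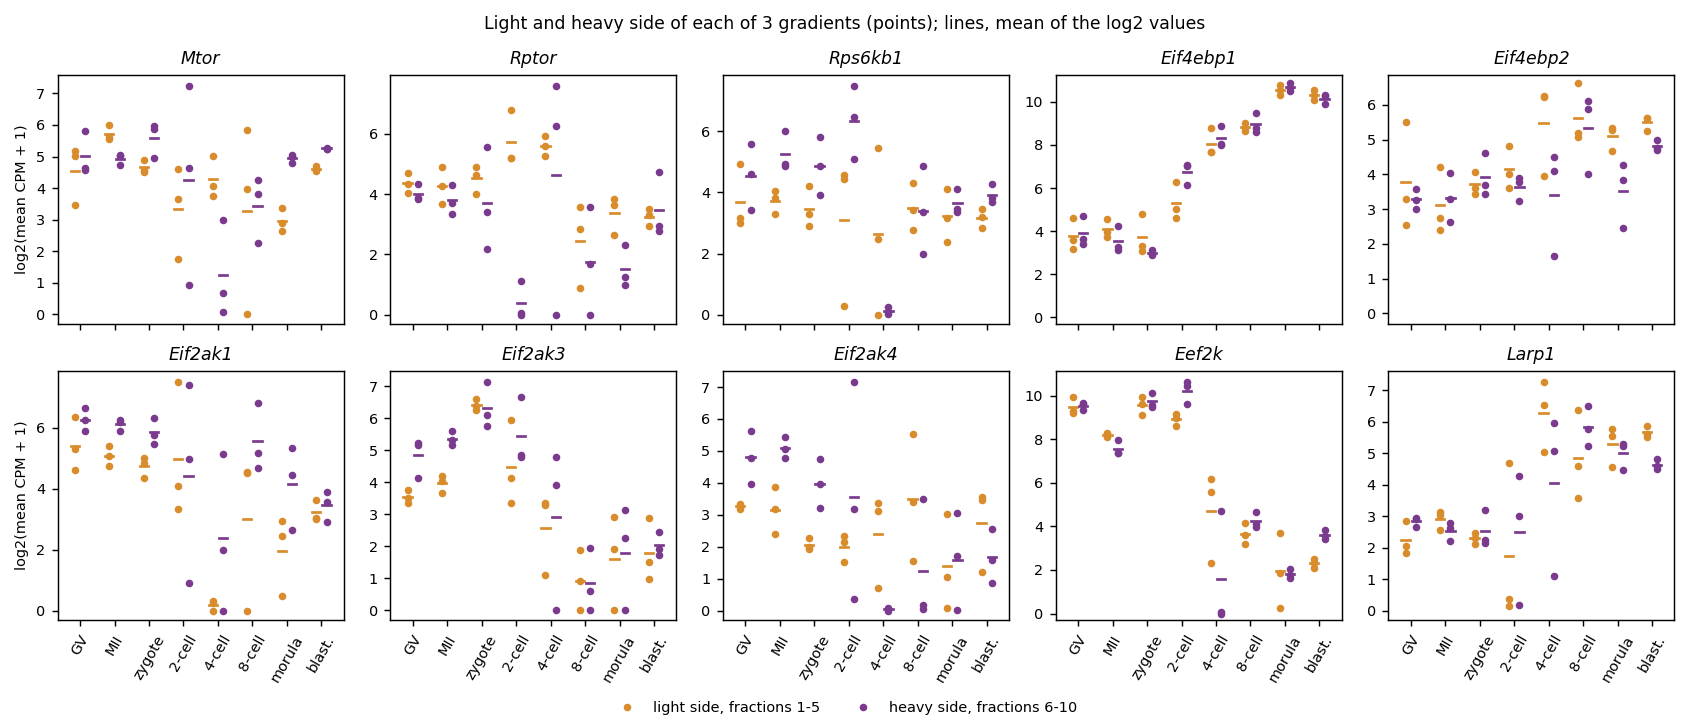
Light-side (orange) and heavy-side (purple) levels of each member as log2(mean CPM + 1) at the 8 stages. Points are the 3 gradients and short horizontal lines mark the means of the log2 values. The 2 sides of Eif4ebp1 run together from the 4-cell stage on, and the points of most members spread widest in 2-cell, 4-cell and 8-cell embryos.

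Mtor was at 26.9, 30.9 and 32.3 CPM in the heavy and 6.41, 9.39 and 5.18 CPM in the light fractions of morulae. The sides did not overlap, and the heavy side was higher by 1.99 (SE 0.66, adjusted p = 0.04). The call was lost without any 1 of the 3 gradients (adjusted p = 0.064 to 0.29), with a pseudocount of 0.1 (0.13) and by edgeR (0.63). In 2-cell embryos the heavy level ran from 0.895 CPM in gradient A to 150 CPM in gradient C. In morulae the mean position of Mtor, its CPM-weighted mean fraction number, was 7.26 ± 0.48 (SD, n = 3), against a median gene at 5.72.

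Rptor lay on the light side in 2-cell embryos, at 35.8, 111 and 35.7 CPM in the light and 0.0414, 1.15 and 0 CPM in the heavy fractions. No gradient overlapped, and the heavy minus light difference was -5.35 (SE 1.45, adjusted p = 0.03). This call too was lost without any 1 gradient (adjusted p = 0.12 to 0.19), with quantile normalization (0.068) and with fractions 7 to 10 as the heavy side (0.054). Its position there was 3.47 ± 0.38, against a median gene at 5.08. In 4-cell embryos the heavy level was 192, 76.5 and 0 CPM in the 3 gradients, and no change to or from that stage was called.

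Rps6kb1 was at 178, 33.4 and 87.0 CPM in the heavy fractions of 2-cell embryos and at 0.200, 0.0181 and 0.0628 CPM in those of 4-cell embryos, which is 2 to 4 reads a gradient. The change was -6.22 (SE 1.45, adjusted p = 0.0039), and no fold is given at that read number. Its transcriptome level did not differ beyond its spread between these stages, at 55.2 to 89.9 CPM and 61.2 to 76.8 CPM. The light side of the 4-cell gradients held 4.57, 0 and 43.1 CPM. The mean position in 2-cell embryos was 8.68 ± 0.43, the farthest of the 10 members at that stage, where fraction 10 held 687, 0 and 333 CPM.

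With the gradient as a block, which pairs the heavy and light side of the same gradient, 10 of 80 tests of members passed in place of 3. Over all genes 10.1% passed with the block and 8.98% without it. At the stages with such member calls, 16.6% of all genes passed with the block in MII oocytes, 16.1% in zygotes, 4.93% in 2-cell embryos, 13.1% in morulae and 18.3% in blastocysts. Rps6kb1 was then higher on the heavy side in MII oocytes (1.53, adjusted p = 0.0083), zygotes (1.40, adjusted p = 0.021) and 2-cell embryos (3.26, adjusted p = 0.045). Without the block these adjusted p-values were 0.072, 0.13 and 0.21. In MII oocytes the heavy side held 29.4, 27.9 and 63.1 CPM and the light side 15.7, 8.77 and 13.3 CPM, with no overlap.

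Eif4ebp1 was at 6.33, 7.71 and 6.66 CPM in the heavy fractions of zygotes and 132, 70.2 and 127 CPM in those of 2-cell embryos. The rise was 3.76 (SE 0.63, adjusted p = 0.00039), beside 3.60 in the transcriptome. Heavy levels were 253, 469 and 264 CPM in 4-cell embryos, 722, 390 and 444 CPM in 8-cell embryos and 1469, 1864 and 1585 CPM in morulae. The step to the morula was 1.70 (SE 0.47, adjusted p = 0.022), with no overlap. It was lost without 8-cell gradient B or C (adjusted p = 0.11 and 0.12), without morula gradient B or C (0.084 and 0.051), and with fractions 7 to 10 as the heavy side (0.06), and by edgeR (0.05).

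Blastocysts held 1216, 1256 and 962 CPM of Eif4ebp1 in the heavy fractions, all below the morula gradients, a change of -0.52 that was not called (adjusted p = 0.4). At no stage did heavy and light sides of Eif4ebp1 differ by a call. Light levels in morulae were 1287, 1729 and 1481 CPM, close to the heavy ones, and the position was 5.51 ± 0.07, beside a median gene at 5.72. The position was 6.24 in 2-cell embryos and 3.78 in zygotes, where fraction 1 held the most, at 88.3, 16.9 and 24.2 CPM.

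Eif4ebp2 was called in no gradient comparison. By stage means its heavy level was lowest in GV and MII oocytes, at 7.02 to 10.9 CPM and 5.21 to 15.5 CPM, but single gradients were lower in 4-cell embryos (2.14 CPM) and morulae (4.50 CPM), and the ranges overlapped. It reached 15.1, 68.8 and 58.4 CPM in 8-cell embryos. In morulae the light side held 24.4, 39.2 and 37.8 CPM and the heavy side 4.50, 13.3 and 18.4 CPM. These did not overlap, but the difference of -1.57 did not pass (SE 0.65, adjusted p = 0.12).

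Larp1 was at 7.08, 0.124 and 18.4 CPM in the heavy fractions of 2-cell embryos and 1.16, 32.2 and 61.6 CPM in those of 4-cell embryos. These overlapped, and the change was 1.56 (SE 1.22, adjusted p = 0.47), beside 4.54 in the transcriptome. The difference between these changes, -2.98, was not called either (SE 1.58, adjusted p = 0.38). In blastocysts the light side held 45.1, 57.1 and 47.3 CPM and the heavy side 21.8, 26.9 and 23.3 CPM, with no overlap and a difference of -1.02 (SE 0.39, adjusted p = 0.053). The position of Larp1 in blastocysts was 4.42 ± 0.22 (SD, n = 3), below the median gene at 5.39.

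For Eef2k the heavy fractions of GV gradients held 807, 778 and 651 CPM, those of MII gradients 164, 250 and 162 CPM and those of zygote gradients 1109, 766 and 718 CPM. The changes were -1.97 (SE 0.36, adjusted p = 0.00042) and 2.17 (SE 0.41, adjusted p = 0.0023). Neighbouring stages did not overlap, yet without sample weights the adjusted p-values were 0.21 and 0.25, and edgeR gave 0.86 and 0.89. DESeq2 gave no adjusted p for Eef2k in these fractions.

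The 2-cell heavy fractions held 1558, 782 and 1374 CPM of Eef2k and the 4-cell ones 0.0508, 0 and 25.3 CPM. This was the largest heavy-fraction change among the members, at -8.62 (SE 0.95, adjusted p = 5e-06). In 8-cell embryos the level was 24, 16.1 and 14.8 CPM, and fraction 6 held 120 and 80.2 CPM in gradients A and B and 0 CPM in gradient C. It was 2.11, 3.10 and 2.41 CPM in morulae and 13.2, 9.65 and 10.9 CPM in blastocysts, with changes of -2.43 (SE 0.52, adjusted p = 0.0036) and 1.79 (SE 0.32, adjusted p = 0.0032). With fractions 7 to 10 as the heavy side the first of these turned to 0.59 (adjusted p = 0.72), and without weights the adjusted p-values were 0.067 and 1.

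Beside these Eef2k values stand those of the oocyte markers. Their summed level in the fractions had a median of 1002 CPM in 4-cell gradients (4.49 to 3556 CPM), 405 CPM in 8-cell and 54.1 CPM in morula gradients, while 4-cell and 8-cell transcriptomes held 71.6 to 89.7 and 54.7 to 76.9 CPM. All 10 markers were above 0 in the transcriptomes of both stages. Their part in the Eef2k level was not tested. In blastocysts the Eef2k heavy side was above the light side, at 3.2, 4.74 and 4.01 CPM, by 1.30 (SE 0.34, adjusted p = 0.0041). That call was lost without gradient A (adjusted p = 0.1), without weights (0.69) and with fractions 6 to 9 as the heavy side (0.11).

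**Figure D4:**
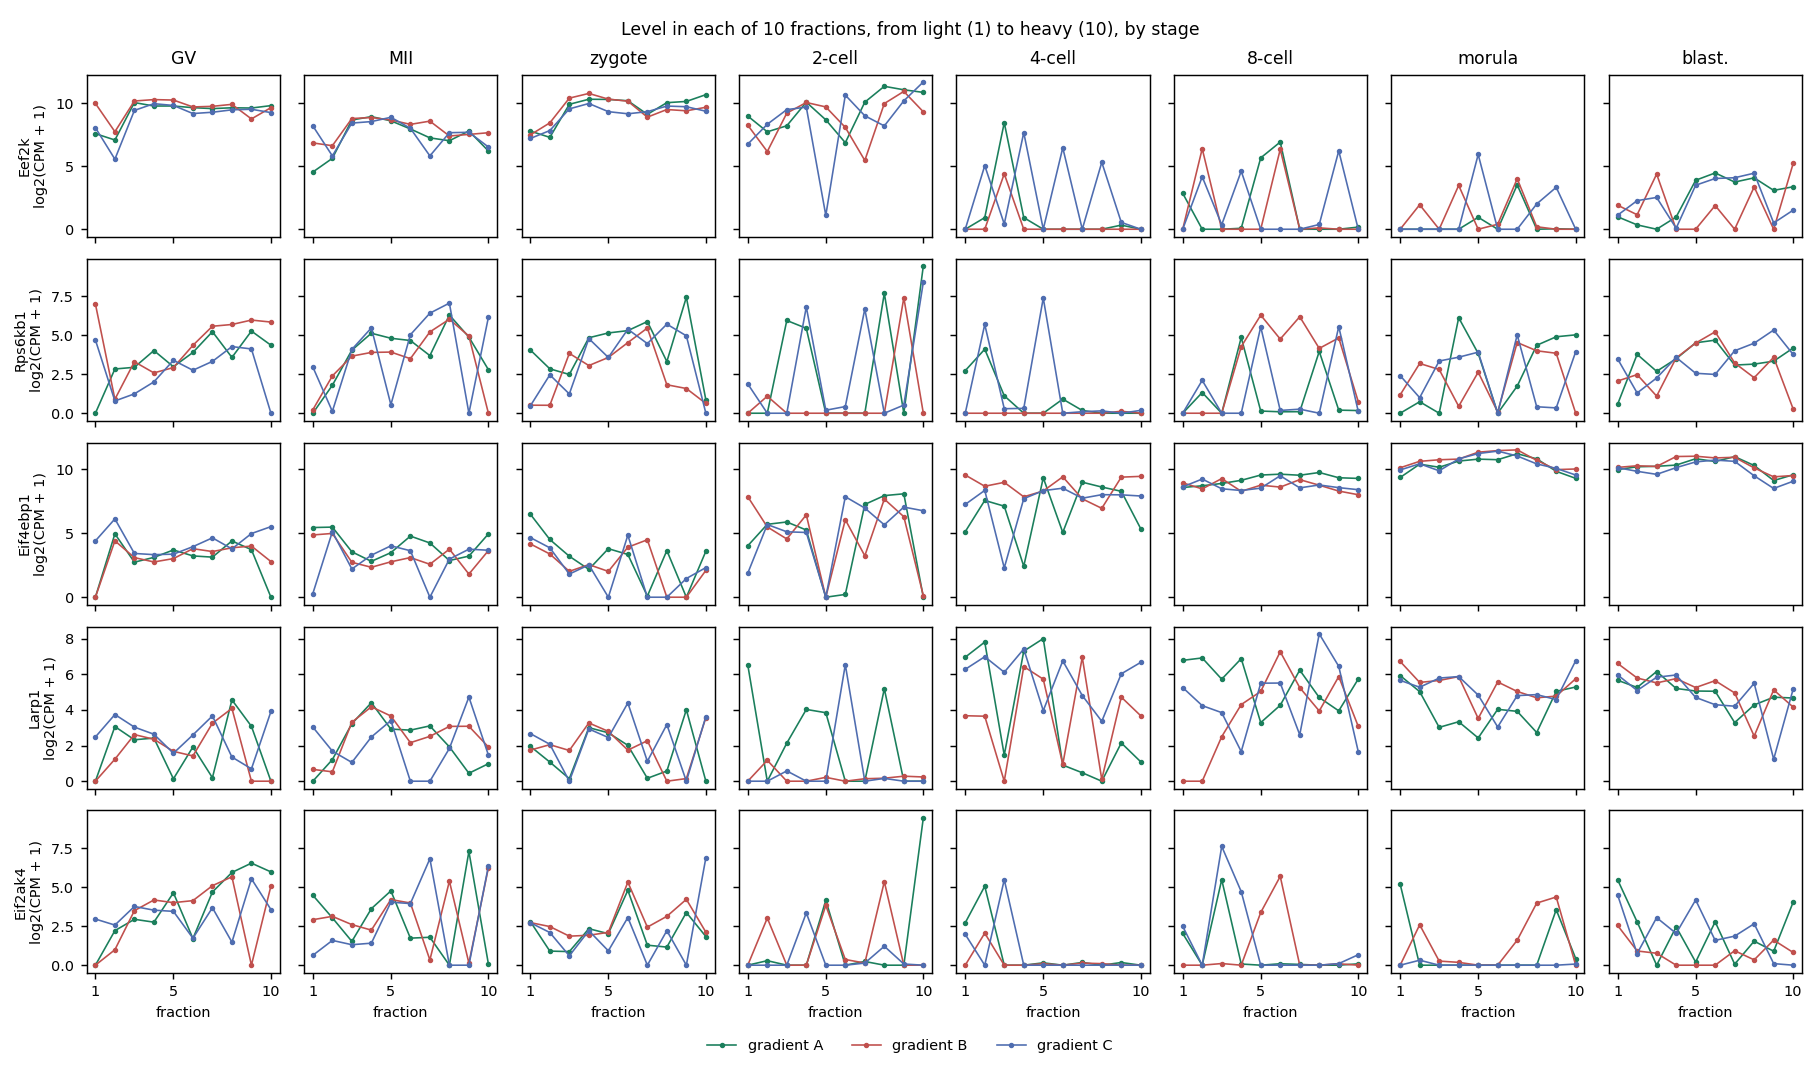
Level as log2(CPM + 1) along fractions 1 to 10 of Eef2k, Rps6kb1, Eif4ebp1, Larp1 and Eif2ak4 (1 row each) at the 8 stages (columns), with 1 coloured line for each of 3 gradients. The mean of the Eef2k gradients is highest at fraction 4 in GV oocytes, MII oocytes and zygotes, though single gradients there peak at other fractions, and in 4-cell and 8-cell embryos single fractions stand high while 63.3% and 56.7% of its values are 0.

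The eIF2 kinases had no called change in the heavy fractions between consecutive stages. Eif2ak1 was at 75.5, 98.2 and 57.7 CPM in GV, 58.3, 72.2 and 74.5 CPM in MII and 79.4, 43.6 and 52.6 CPM in zygote heavy fractions, which overlapped, whereas its transcriptome level fell from MII to zygote. In 2-cell embryos the 3 gradients gave 0.881, 30.6 and 167 CPM. In morulae its heavy side was above the light side by 2.18 with the gradient block (adjusted p = 0.023) and not without it (0.062).

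Eif2ak3 was highest in zygotes, at 66.9, 53.6 and 138 CPM in the heavy and 81.6, 75.4 and 96.7 CPM in the light fractions. There fraction 1 held 270, 278 and 324 CPM, its highest fraction in zygotes. In MII oocytes, by contrast, the heavy side held 47.8, 38.7 and 34.5 CPM and the light side 17.5, 15.5 and 11.8 CPM, with no overlap. That difference of 1.38 passed with the gradient block (adjusted p = 0.033) and missed without it (0.086).

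Eif2ak4 lay far down the gradient in oocytes, at a mean position of 7.26 ± 0.78 in GV and 7.54 ± 0.28 in MII oocytes, beside median genes at 5.75 and 5.49. The MII heavy side held 32.4, 26.5 and 41.9 CPM and the light side 13.7, 8.16 and 4.25 CPM. With the gradient block it was higher on the heavy side in MII oocytes (1.93, adjusted p = 0.036) and zygotes (1.92, adjusted p = 0.047), and without the block the adjusted p-values were 0.053 and 0.068. In 4-cell embryos the heavy fractions held at most 2 reads a gradient, so no level can be given there beyond that limit. The position was 2.37 ± 0.49 in 4-cell and 3.81 ± 0.29 in blastocyst gradients, beside median genes at 4.88 and 5.39, a description with no test. In 4-cell gradients A, B and C it rested mostly on 1 fraction each, with 73, 11 and 398 reads, and 63.3% of values were 0. In blastocysts fraction 1 had the highest mean, at 43.8, 4.86 and 21.8 CPM from 178, 23 and 56 reads.

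Heavy against light, limma called 0 members in GV oocytes (3.96% of 15172 genes were called), MII oocytes (15.1%), zygotes (14.8%), 4-cell embryos (0.738%) and 8-cell embryos (5.06%). It called 1 in 2-cell embryos (3.34%), morulae (11.4%) and blastocysts (17.4%). Members with an unadjusted p under 0.05 at the 5 stages without a call numbered 2, 3, 2, 2 and 1, and edgeR called 0, 0, 0, 3 and 0. The share of 3.75% over 80 tests lay below the 8.98% over all genes in this fit, which does not pair the 2 sides of a gradient. With the gradient block 3 members were called in MII oocytes and 2 in zygotes. The share of members was then not below that of all genes. No test of either gap was made.

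The last comparison asked whether the heavy fractions changed by more or less than the transcriptome, as an interaction term in limma over 15165 genes. Over the 70 tests of members 2 were called, or 2.86%, against 6.12% over all genes. Rps6kb1 from 2-cell to 4-cell embryos was called at -6.13 (SE 1.24, adjusted p = 0.0027), where 2.57% of all genes were. At that transition 3 members had an unadjusted p under 0.05, and edgeR called 5. The Rps6kb1 light side held 20.5, 0.226 and 22.6 CPM in 2-cell and 4.57, 0 and 43.1 CPM in 4-cell gradients. It lay below every transcriptome pool at both stages, and its change was not tested. Eif4ebp1 from morulae to blastocysts was called at -1.82 (SE 0.42, adjusted p = 0.0033), where 7.7% of all genes were. For Eif4ebp1 the transcriptome rose by 1.30 and the heavy level changed by -0.52. Its light level did not rise either, at 1287, 1729 and 1481 CPM in morulae and 1279, 1516 and 1077 CPM in blastocysts. The gap to the transcriptome is thus not particular to the heavy side, and the light change was not tested. The Eif4ebp1 call was lost without the heavy fractions of morula gradient B (-1.72, adjusted p = 0.051) and by edgeR (-1.46, adjusted p = 0.14).

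At the other 5 transitions limma called 0 members beyond the transcriptome. The shares of all genes called were 16.6% from GV to MII oocytes, 3.41% to zygotes, 8.66% to 2-cell embryos, 0.646% from 4-cell to 8-cell embryos and 3.28% to morulae. Members with an unadjusted p under 0.05 numbered 0, 1, 1, 3 and 2, and edgeR called 0, 0, 2, 3 and 1. As a description, Eef2k stood higher in the heavy fractions than in the transcriptome by 3.36, 3.50, 4.52 and 4.21 log2 from the GV oocyte to the 2-cell embryo, beside median genes at 0.00, 0.01, 0.05 and -0.64. At the 4-cell stage the difference was 0.44 and the ranges overlapped, with gradients A and B below every pool and gradient C above. The Eef2k difference was 3.14 at the 8-cell stage, 1.26 in morulae and 1.22 in blastocysts, with no overlap. Median genes stood at -0.20, -0.20 and -0.26 there. Eif4ebp1 was higher in the heavy fractions at all 8 stages with no overlap, by 0.73 to 2.54. For Larp1 the same difference was 1.45 in GV oocytes and -3.58 in blastocysts, where the 5th percentile over all genes was -3.22. The light side showed gaps in the same direction. For Eef2k it held 628, 969 and 580 CPM in GV oocytes and lay above every transcriptome pool through the 8-cell stage. In morulae and blastocysts the Eef2k light side overlapped the pools. The Eif4ebp1 light side lay above the pools at every stage but the 2-cell stage, where ranges overlapped. That of Larp1 lay above them in GV oocytes and below them in blastocysts. Where both sides lay clear of the pools, these gaps are thus not particular to the heavy side.

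Partner genes of the pathways were counted by list in the transcriptome fit. From 2-cell to 4-cell embryos, where 64.8% of all genes were called, 3 of 9 other mTOR complex subunits rose and 4 fell, with a median of -0.79 beside 0.02 over all genes. The complex 1 and shared factors Mlst8 (3.29), Telo2 (3.40) and Akt1s1 (1.73) rose, and Rictor (-2.12), Mapkap1 (-2.16), Prr5 (-2.69) and Prr5l (-4.43), subunits of complex 2 or binding it, fell. Of 31 tested upstream regulators of mTORC1, such as the Rag GTPases, 10 rose and 10 fell. Counts with quantile normalization were 3 and 4 of the subunits and 9 and 10 of the regulators.

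Of 23 tested mTORC1 targets and cap-binding partners 12 rose and 4 fell from 2-cell to 4-cell embryos, with a median of 1.57, where 31.8% of all genes rose and 32.9% fell with a median of 0.02. The S6 kinase substrate Rps6 (4.90), the Eef2k substrate Eef2 (4.29) and the scaffold Eif4g1 (2.99) rose. The oocyte form of the cap-binding protein, Eif4e1b (-6.75), and Eif4e3 (-4.49) fell. Of 27 tested genes of the eIF2 pathway 14 rose and 4 fell, with a median of 1.15. Counted in both directions, the called totals of these lists lie near the 64.8% of all genes. Among them the eIF2B subunit Eif2b5 (4.08), the asparagine synthetase gene Asns (4.20) and the GCN2 partner Gcn1 (2.70) rose, and Eif2ak2, the kinase PKR that senses double-stranded RNA, fell (-1.28).

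From GV to MII oocytes 34.5% of all genes were called, more of them lower than higher. There 2 subunits rose and 3 fell, and 6 regulators rose and 6 fell. For targets the counts were 4 and 8, and for eIF2 pathway genes 6 and 10. With quantile normalization they were 11 and 6 for regulators, 8 and 6 for targets and 9 and 9 for the eIF2 pathway. The subunit counts stayed at 2 and 3. The direction of these counts thus depended on scaling. From zygotes to 2-cell embryos (33.9%) the counts were 1 and 0, 10 and 3, 6 and 3, and 11 and 3, in the same order of lists. From morulae to blastocysts (26.8%) they were 1 and 0, 9 and 1, 5 and 3, and 4 and 2. With quantile normalization 4 regulators rose at that last step in place of 9.

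Across the 32 transcriptome libraries, which share stages and so are not independent points, Eif4ebp1, Eif4ebp2 and Larp1 ran together. Pearson's r of log2(CPM + 1) was 0.948 for Eif4ebp1 with Larp1, 0.945 for Eif4ebp2 with Larp1 and 0.929 for the 4E-binding proteins with each other. Eef2k ran opposite to Larp1 at -0.873. Among 14642 genes those most like a member by this measure were Ptma (0.994) and Vps33a (0.991) for Larp1, Ftl1 (0.990) and Bag3 (0.990) for Eif4ebp1, and Atxn7l3b (0.968) and Cluh (0.967) for Eif4ebp2. Evl (0.983) and Map3k6 (0.980) were most like Eef2k, and Ppfibp1 (0.955) and Dlg1 (0.939) most like Eif2ak4.

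For Eif2ak1 the most like were Saraf (0.946) and Marchf7 (0.945), and for Rptor Pik3r2 (0.928) and Rnh1 (0.922). Lower values were reached for Rps6kb1 with Efna1 (0.874) and Brca2 (0.871), Eif2ak3 with Bahd1 (0.844) and Raph1 (0.841), and Mtor with Acsl6 (0.831) and Pex26 (0.813). These 3 members are also among those with the narrower ranges over development, at 2.67-fold, 4.59-fold and 2.88-fold between the highest and lowest stage mean.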

How the data were processed

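RNA was measured in 32 transcriptome and 240 gradient-fraction libraries. Libraries were made with a Smart-seq kit and Nextera tagmentation and sequenced as 150-bp pairs, per the labels' protocols. The submitters' processing notes name Trim Galore 0.6.7, FastQC, HISAT2 2.2.1, featureCounts 2.0.1, edgeR and GRCm39, with no role or order, and no strand setting is given in the sources used here. The authors deposited 1 table of CPM per gene symbol and library. Its 15854 symbols held 76 groups with identical values in every library (159 symbols), of which 1 each was kept (15771). Because of these repeats 38 columns summed to more than CPM allows, and 9 of them were recorded as a signal, which the authors had scaled and deposited like the others; they were used as CPM. The 2-cell transcriptome columns carry other letters than the labels and were mapped to the group only.

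In 271 libraries 100% of values were whole reads (within 0.05 reads), so reads were recovered for count models. Fraction 7 of the 2-cell gradient B was left out of those models (1 read is 0.101 CPM). The libraries have no molecular identifiers, so read numbers cover counting error only. The main test was limma 3.58.1 (R 4.3.3) on log2(CPM + 1), with weights per group and a mean-variance trend, on genes that reached a CPM of 1 in a number of samples equal to the smallest group. Changes on that scale understate those of low genes. From 4-cell to 8-cell transcriptomes limma called 259 genes, edgeR 4.0.16 577 and DESeq2 1.42.0 885. Scripts also used Python 3.11.15 with pandas 2.3.3, numpy 2.4.6 and matplotlib 3.10.9, and tests were tried on simulated data first.

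All 10 members are described; other pathway genes are named only where called (at most 4 by size per list) or where they are a direct partner of a member, and the genes most like a member are the 2 with the highest r. Members and lists were chosen with earlier results of these data known. The heavy and light side of a stage come from the same gradients: each heavy mean correlated best with the light mean of its own gradient in 24 of 24 cases (r from 0.00776 to 0.253). Alternatives were another pseudocount (0.1), filter, scaling, weighting, side of the gradient, tool, a replicate block, and each replicate left out.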

Additional observations from a re-analysis of the deposited data

Results flagged for a closer look

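In 3 of 80 groups of 4 transcriptome pools 1 pool lay far from the others, and about 1 in 20 groups does so by chance. Rptor in MII pool B was at 2.34 CPM, with the other pools at 4.32 to 4.69 CPM. Eef2k in 8-cell pool D was at 1.79 CPM, with the others at 0.88 to 0.996 CPM. Larp1 in blastocyst pool D was at 390 CPM, with the others at 263 to 276 CPM.

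At 2 points the heavy fractions and the transcriptome changed differently, as tested by limma's interaction term. Rps6kb1 from 2-cell to 4-cell embryos differed by -6.13 log2, heavy fractions minus transcriptome (adjusted p = 0.0027). Eif4ebp1 from morulae to blastocysts differed by -1.82 (adjusted p = 0.0033). Its light level overlapped between these stages, so the difference was not particular to the heavy side.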

How the results depend on the processing

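Calls in the transcriptome were the steadiest: 12 of 19 passed under every alternative, against 3 of 8 in the heavy fractions, 0 of 3 between heavy and light sides and 1 of 2 beyond the transcriptome. DESeq2 called 14 member changes in the heavy fractions in place of 8. Between the sides the 3 calls became 5 with a filter at CPM 5, 6 with quantile normalization, 6 without weights, 9 with only the groups compared, 6 with fractions 7 to 10 as heavy, 5 and 15 with fractions 2 to 5 and 1 and 2 as light, and 5 with edgeR. Beyond the transcriptome the 2 calls became 4 with a pseudocount of 0.1, 13 without weights and 11 with edgeR. The heavy change of Eef2k from 8-cell embryos to morulae turned to 0.59 with fractions 7 to 10. Leaving out each replicate gave 18 to 20, 7 to 9, 2 to 3 and 1 to 3 calls for the 4 sets. Mean positions moved beyond 1 SD in 25 of 80 cases with log2 weights and 20 of 80 without fraction 1. The cause was not tested.

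The gradient block gave 10 calls between the sides in place of 3. Across stages the letters paired weakly if at all: 0 of 21 heavy pairs and 2 of 20 transcriptome pairs correlated over 0.1. Of these pairs 10 and 5 were best with their own letter. Every 4-cell pool was best with its own letter in 8-cell embryos (r from 0.0476 to 0.102). So was every morula gradient with its own in the heavy fractions of blastocysts (r from 0.0578 to 0.0912). A replicate block there gave 10 transcriptome calls over the 5 transitions without 2-cell embryos (10 without it), 8 in the heavy fractions and 1 beyond the transcriptome, and changed no call of a member. In the fractions of 4-cell embryos 46.3% of member values were 0, and the part of depth in this was not tested.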
